A study of Mus musculus with 2 samples.

Results

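The mouse genes for the core histones H2A, H2B, H3 and H4 and the linker histone H1 that carry a Hist1h, Hist2h, Hist3h or Hist4h name were examined in a map of accessible chromatin. They were taken as all protein-coding genes whose symbol or synonym starts with one of these prefixes, which gave 67 of 21887 protein-coding genes. No member carries such a name as its current symbol, so all 67 were found through synonyms. They comprised 6 H1, 18 H2A, 18 H2B, 12 H3 and 13 H4 genes, the type being read from the synonym. H4bc24, which carries the synonym Hist1h2br, was therefore counted as H2B. The map was made by ATAC-seq, in which the transposase Tn5 cuts and tags open chromatin. The material was GFP-positive cells purified by FACS from embryos of the C57/Bl6 strain carrying Hb9::GFP, at embryonic day 10.5. In this transgene regulatory sequence of Hb9, an older name of the motor neuron gene Mnx1, drives GFP, and the labels call the cells spinal motor neurons. There was 1 group of 2 replicates, deposited as 1 pooled and filtered peak list, so no value below has a replicate error and no test between conditions exists. Whether the replicates came from separate litters is not stated. All 5 marker genes of motor neurons examined (Mnx1, Isl1, Lhx3, Slc18a3 and Chat) had an entry within 1 kb of their span, which describes accessibility and does not measure expression. Of all protein-coding genes 75.9% had such an entry. Slc18a3 lies inside the span of Chat, so its entries count for both. At their most significant entry Mnx1 and Isl1 had 406 and 244 reads, and Slc18a3, Chat and Lhx3 had 57, 47 and 38. The median over all genes with an entry was 98.

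Replication-dependent histone genes supply the histones that package newly copied DNA, and most are transcribed mainly during S phase. They are short, lack introns, and give mRNAs that end in a stem-loop in place of a poly(A) tail. Most lie in clusters, and H2A and H2B genes are often arranged as divergent pairs whose starts face away from each other across a short shared promoter. In the nucleus the clusters gather at the histone locus body, a structure organised by NPAT. Motor neurons leave the cell cycle as they form, and neurons that no longer divide also use replacement histones such as H3.3. The H3.3 genes H3f3a and H3f3b lie outside the clusters. A few clustered genes are known for expression in the testis, among them H1f6 (H1t), H2ac1 (TH2A) and H2bc1 (TH2B).

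The sequence before the start of 8 members is shown, because these genes mark the strongest and weakest signals and the genes without one. RefSeq promoter windows of the GRCm38.p6 build, the assembly behind mm10, matched 62 of the 67 members. The others were H2bc4, H2bc21, H3c1, H3c7 and H4c14. Each line gives the 150 bases before the annotated start, 5′ to 3′ on the strand of the gene. H1f4 (chr13:23622559-23622708, minus strand), H2ac6 (chr13:23683960-23684109, minus strand), H3c6 (chr13:23562386-23562535, minus strand) and H4f16 (chr6:136804432-136804581, minus strand) had the most significant summit of their type. H4c2 (chr13:23756787-23756936, plus strand) had the least significant summit of all members that had one, each gene being taken at its most significant summit in reach. H1f6 (chr13:23695661-23695810, plus strand), H2ac1 (chr13:23934287-23934436, plus strand) and H2bc1 (chr13:23934157-23934306, minus strand) had none. Capitals mark the TATA box (TATAAA), the CCAAT box (CCAAT), the octamer (ATTTGCAT) and the GC box (GGGCGG) on either strand, and a match is a description of letters, not of a bound site.
H1f4: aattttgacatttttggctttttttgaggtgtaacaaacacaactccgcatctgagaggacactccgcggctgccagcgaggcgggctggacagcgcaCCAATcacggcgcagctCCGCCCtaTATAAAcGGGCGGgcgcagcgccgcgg
H1f6: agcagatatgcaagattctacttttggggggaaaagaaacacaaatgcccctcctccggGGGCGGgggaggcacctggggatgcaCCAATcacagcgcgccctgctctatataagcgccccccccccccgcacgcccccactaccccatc
H2ac6: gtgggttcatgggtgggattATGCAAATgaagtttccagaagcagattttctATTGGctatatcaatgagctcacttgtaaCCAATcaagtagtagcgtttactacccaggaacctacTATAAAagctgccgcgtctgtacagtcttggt
H2ac1: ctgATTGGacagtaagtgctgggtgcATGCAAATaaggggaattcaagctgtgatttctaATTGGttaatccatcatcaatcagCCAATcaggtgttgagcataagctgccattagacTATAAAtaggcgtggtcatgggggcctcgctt
H2bc1: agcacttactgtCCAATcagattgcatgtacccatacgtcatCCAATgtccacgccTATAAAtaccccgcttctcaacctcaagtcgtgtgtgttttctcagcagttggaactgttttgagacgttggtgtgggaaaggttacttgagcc
H3c6: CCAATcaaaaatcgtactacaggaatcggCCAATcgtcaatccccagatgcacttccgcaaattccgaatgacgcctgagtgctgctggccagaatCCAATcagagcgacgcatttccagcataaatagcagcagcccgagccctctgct
H4f16: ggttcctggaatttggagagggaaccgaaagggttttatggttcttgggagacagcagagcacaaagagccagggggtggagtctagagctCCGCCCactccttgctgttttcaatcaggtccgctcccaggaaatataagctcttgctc
H4c2: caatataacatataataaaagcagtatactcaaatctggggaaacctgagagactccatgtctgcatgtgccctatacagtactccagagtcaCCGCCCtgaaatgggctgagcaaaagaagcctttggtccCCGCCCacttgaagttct

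These motifs were spread unevenly over the histone types. In the 150-base windows, CCAAT stood at all 6 H1, all 18 H2A and all 16 H2B genes with a window, at 8 of 10 H3 genes and at 3 of 12 H4 genes, against 24.5% of the 32851 windows of the whole RefSeq table. GGGCGG showed the opposite order among the core histones, with 9 of 12 H4 genes, 2 of 10 H3, 2 of 18 H2A and 0 of 16 H2B genes, against 28.6% of all windows. ATTTGCAT, which is known from H2B promoters, was found at 6 of 16 H2B and 5 of 18 H2A genes and at none of the H1, H3 and H4 genes, against 0.998% of all windows. Divergent H2A and H2B genes start close together on opposite strands, so their upstream windows overlap and can hold the same copy. TATAAA was present at 24 of 62 members (38.7%) and in 7.57% of all windows. It stood on the strand of the gene at 22 members, and at 12 its first base lay 40 to 20 bases before the start. The 3 members without a summit were not bare of these letters: all 3 held CCAAT, H2ac1 and H2bc1 held TATAAA, and H2ac1 held the octamer. The TATAAA of H2ac1 began at -32 and that of H2bc1 at -94 bases from the start. H2ac1 and H2ac6 both held a TATA box, a CCAAT box and the octamer, and the H2ac6 promoter carried 197 reads and H2ac1 had no summit within reach.

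Nearly all histone genes had accessible chromatin. A summit is a base of locally highest signal within an accessible interval, which can hold more than 1. For 64 of 67 members, or 95.5%, a summit lay within 1 kb of the gene span. Among all protein-coding genes 75.9% had one, although histone genes are far shorter (median span 492 bp, against 17169 bp) and so offer a smaller target. Among the other genes with a span of 2 kb or less the share was 18.8%. That group holds 1218 olfactory, vomeronasal, taste and trace amine receptor genes, of which 1.89% had a summit, and without them the share of short genes was 34.6%. The members were reached by 121 different summits in 52 intervals, counting a shared summit once, and 51 of the 121 lay within reach of more than 1 member. All 64 kept a summit with a q-value under 0.05, a limit met by 74.3% of all genes. The higher share of members did not hold without entries whose local background reached 30 reads. Then 49 of 67 members (73.1%) had a summit, against 75.7% of all genes. This filter acts on a value that was high at members, a median of 25.0 reads against 10.3 over all genes with a summit. It took the summit from 15 members, while 16563 of 16620 genes kept one, so a fall at members was built into it. All 12 H3 and all 13 H4 genes had a summit, as did 17 of 18 H2A, 17 of 18 H2B and 5 of 6 H1 genes. No group was compared by a test, since genes are not replicates.

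**Figure D1:**
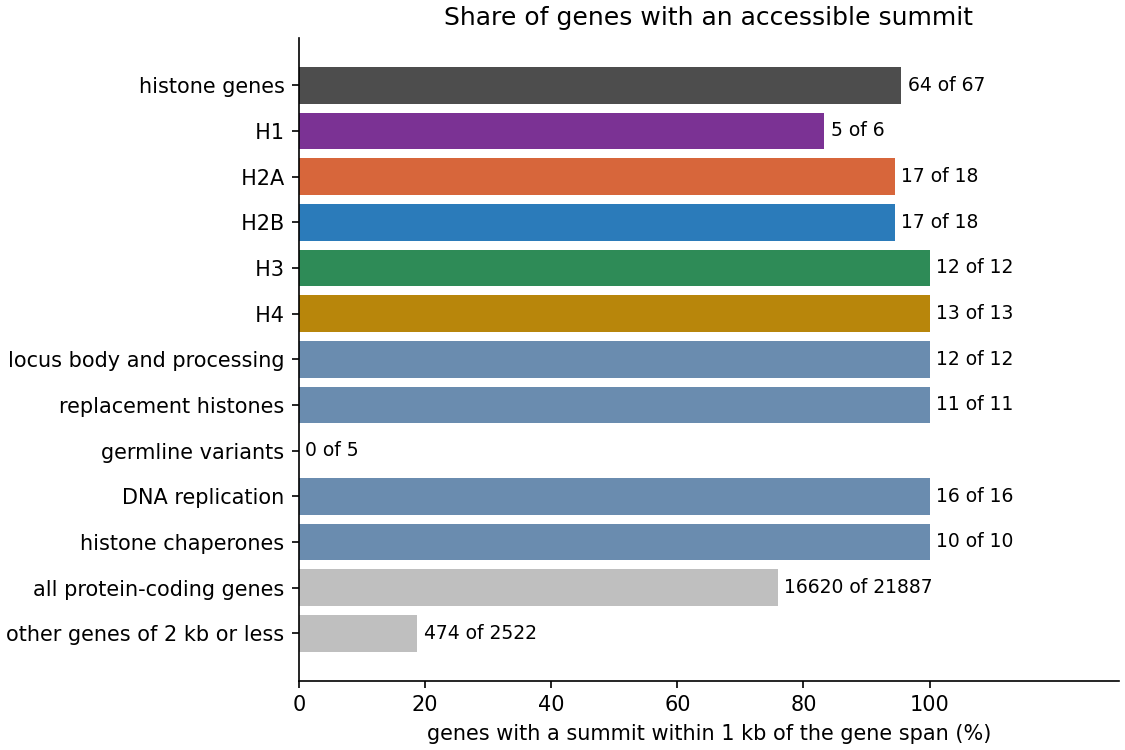
Share of genes with a summit within 1 kb of the gene span, in percent, for the histone genes, each histone type, 5 lists of related genes, all protein-coding genes and other genes of 2 kb or less. The numbers beside the bars give the genes with a summit and the genes in the group. Of the histone genes 64 of 67 had one, against 474 of 2522 other genes of 2 kb or less. The germline variants outside the rule had 0 of 5.

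The 3 members without a summit were H1f6, H2ac1 and H2bc1, all known as testis histone genes. H2ac1 and H2bc1 form a divergent pair with starts 281 bp apart, and 167 kb outside any member's window separate it from the largest cluster on chromosome 13. Their nearest summit was 14849 bp from H2ac1 and 15606 bp from H2bc1, with 16 reads and 2.67-fold enrichment. H1f6 differed from them in lying inside the large cluster, between H2bc4 and H4c3. Its nearest summit was 1224 bp away, just outside the limit, with 53 reads and 3.60-fold enrichment, and lay in the interval of H4c3. Among the members inside the limit, the nearest summit of H2ac11 was the most distant, at 379 bp. The smallest signal in the list was 11 reads, so a gene without a summit is below the caller's limit and is not shown to be closed.

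Related genes were read from lists beside the members. None of the 5 germline histone variants outside the clusters (H1f7, H1f8, Hils1, H2ab3 and H2bfm) had a summit. Of other genes of 2 kb or less 18.8% had one, or 34.6% without the chemoreceptors. The median span of the 5 variants was 1049 bp, so 0 of 5 was not told apart from that share. All 11 replacement histone genes had a summit, against 75.9% of all protein-coding genes, with a median of 157 reads and 8.09-fold. H2az1 (H2A.Z) had the most reads of that list, 252 at 7.08-fold, and H2az2, the second H2A.Z gene, had 197 at 10.99-fold. The H3.3 genes H3f3a and H3f3b had 172 and 157 reads. H2ax, the variant phosphorylated at DNA breaks, had 178, H1f0 152, H2aj 202 and H1f10 101. Macroh2a1 and Macroh2a2 had 86 and 85 reads and Cenpa, the centromeric H3, 73. The members themselves had medians of 141 reads and 5.55-fold, so the reads of the lists and the members lay in the same range, while every replacement histone gene exceeded 5.55-fold.

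Genes that serve the histone locus body and the 3′ processing of histone mRNA all had a summit, 12 of 12, with a median of 142.5 reads and 10.1-fold. Of all protein-coding genes 75.9% had one. Npat, the scaffold of the histone locus body, had 190 reads at 11.7-fold (gene at chromosome 9, 53536889 to 53575627). Casp8ap2 (FLASH), which joins the U7 particle to the cleavage complex, had the most, 234 reads at 13.2-fold. Slbp, whose protein binds the stem-loop, had 173 at 8.16-fold. Hinfp, a factor of H4 promoters, had 149 and the U7 components Lsm11 and Lsm10 had 141 and 81. The cleavage factors Cpsf2, Cpsf3 and Sympk had 164, 132 and 144 reads, the exonuclease gene Eri1 103, Zfp473 102, and Coil the fewest at 68. DNA replication genes, from Pcna to Orc1, had a summit at 16 of 16 members (median 138 reads, 8.72-fold) and histone chaperones at 10 of 10 (135.5 reads, 8.73-fold). Median spans in these lists, in the order given, were 23232, 15770 and 27618 bp, against 492 bp for the histone genes. Inside the span only, 9 of 12, 13 of 16 and 5 of 10 genes had a summit, against 69.0% of all genes. Accessibility at these genes does not measure replication, and the share of cycling cells in the sort was not measured.

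The strength of a summit is given below as reads and as fold. Reads are the overlapping reads or fragments at the summit, solved from the authors' fold and p-value at each entry. Fold is the authors' ratio of that pileup to the caller's local background. For each gene the summit with the highest −log10 q is used. Intervals of reads are 95% exact Poisson intervals, which cover counting error only. Across the 64 members with a summit, reads ran from 62 to 222 with a median of 141, against a median of 98 over all genes with a summit. Of them, 52 exceeded 98 reads. A summit of 100 reads or more was present at 51 of 67 members (76.1%), against 36.9% of all genes and 5.67% of other short genes. Fold showed the reverse: the median was 5.55, against 8.30 over all genes with a summit, and only 5 of 64 members exceeded 8.30.

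The local background, the denominator of the fold, was above the all-gene median at every member with a summit. It ran from 10.9 to 39.8 reads, with a median of 25.0, and in all 64 it was above the 10.3 reads that are the median of all genes. The lowest members, such as H4c14 at 10.9 reads, stayed below the upper quartile of all genes, 14.0 reads. At H3c10 the summit held 125 reads and over 39.8 reads of background it reached 3.09-fold. H4c11, with 156 reads over a background of 16.1, reached 9.20-fold. H2ac8 and H2bc8 shared a summit of the same 156 reads, over 38.4 reads of background, at 3.99-fold. At equal reads the folds thus ran from 3.99 to 9.20. In bulk material, fewer cells with an open site and a site less open in each cell cannot be told apart. What raised the background at these genes was not tested.

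**Figure D2:**
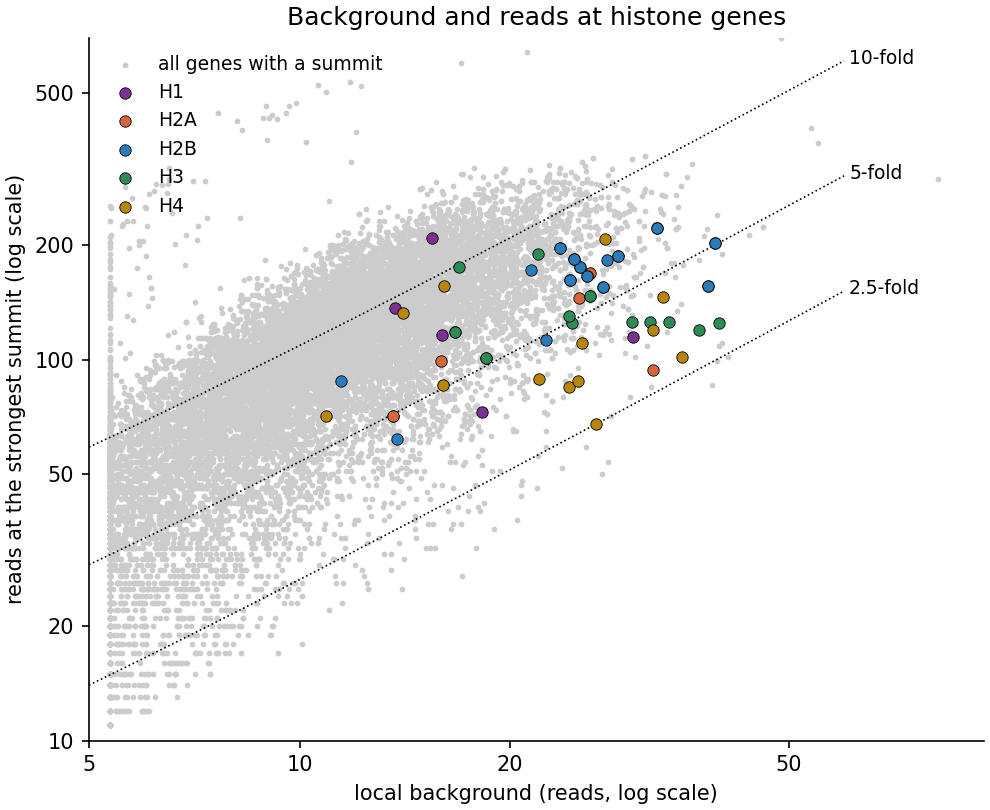
Reads at the strongest summit against local background, both in reads on log scales, for histone genes by type (coloured points) and all genes with a summit (grey); dotted lines mark equal fold. All 64 histone genes lie to the right of the all-gene median background of 10.3 reads, and most lie below the 10-fold line.

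Linker histone genes ran from 3.74 to 12.8-fold. H1f4 had the highest fold and −log10 q of all members, 209 reads (182 to 239) at 12.8-fold over a background of 15.4 (interval at chromosome 13, 23621633 to 23622819). H1f2 followed with 137 reads (115 to 162) at 9.39-fold, and H1f3 had 116 reads (95.9 to 139) at 6.90-fold. H1f1 had almost the same reads, 115 (94.9 to 138), at 3.74-fold. H1f5, which lies in another cluster of chromosome 13, was the lowest with 73 reads (57.2 to 91.8) at 3.84-fold. The counting intervals of H1f2, H1f3 and H1f1 overlapped, whereas those of H1f4 and H1f5 overlapped with none of these 3. With H1f6 lacking a summit, the 6 linker genes covered the full span from none to the strongest fold of the family.

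H2A and H2B genes had the highest median reads, and many of their strongest summits were shared. Their medians were 162 and 166 reads, against 126 for H3, 116 for H1 and 102 for H4. A summit shared by an H2A and an H2B gene counts in both medians, and whether sharing bears on the reads was not tested. The types overlapped widely, and the ranges were 71 to 222 for H2A, 62 to 222 for H2B, 101 to 189 for H3 and 68 to 207 for H4. The divergent pair H2ac11 and H2bc11 had the most reads of all members, 222 (194 to 253) at 6.67-fold, in an interval at chromosome 13, 22042448 to 22044115. H2ac6 and H2bc4 shared the most significant summit of either type, with 197 reads (170 to 227) at 8.06-fold (chromosome 13, 23683400 to 23684898). H2ac7 and H2bc7 shared 203 reads at 5.06-fold, and H2ac12 and H2bc12 shared 184 at 7.21-fold. Genes outside pairs of members could reach the same level: H2bc14, which lies beside the H2A pseudogene H2ac14, had 183 reads and H2bc6 had 172. Low values were found in several clusters. On chromosome 3, H2ac20 and H2ac21 shared 71 reads at 4.94-fold. The neighbouring H2bc21 had 62 (47.5 to 79.5) at 4.27-fold, the fewest reads at the strongest summit of any member. That summit of H2bc21 lay in H2ac20, and the summit in the H2bc21 span had 38 reads at 2.66-fold. H2ac10 on chromosome 13 had 94 reads but the lowest fold of the H2A genes, 2.88 over a background of 32.0. H2bc9 had 113 reads at 4.85-fold, and the summit shared by H2ac8 and H2bc8, at 3.99-fold, was the lowest fold of the H2B genes. On chromosome 11, H2bu2 and H2aw had fewer than 100 reads each.

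H3 genes differed less in reads than in fold, with several resting on a neighbour's summit. Between 118 and 130 reads were found at 8 of the 12: H3c13, H3c4, H3c10, H3c15, H3c1, H3c8, H3c11 and H3c14. H3c7, with 189 reads at 8.29-fold, and H3c6, with 175 at 9.82-fold, stood above them, and H3c3 had 147. H3c2 had the fewest, 101. Fold separated the even genes more than reads did, from 3.09 at H3c10 and 3.17 at H3c4 to 6.74 at H3c13, whose background was 16.7 reads. For 3 H3 genes the strongest summit in reach lay outside the gene. That of H3c13 was in H2bc18, 1140 bp past the H3c13 start, and the summit in the H3c13 span had 79 reads at 4.41-fold. That of H3c14 stood in H2ac18 at -929 bp from the H3c14 start, and the summit in its own span had 113 reads at 4.62-fold. That of H3c3 stood at -991 bp, and the summit in its own span had 106 reads at 4.52-fold.

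H4 genes had the lowest median of both measures, 102 reads and 4.25-fold. The only member on chromosome 6, H4f16, formerly Hist4h4, was the exception with 207 reads (180 to 237) at 7.35-fold (interval at chromosome 6, 136803594 to 136804598). The replacement histone gene H2aj lies close by, at 136808248 to 136810074. H4c11 (156 reads, 9.20-fold) and H4c3 (133 reads, 8.89-fold) had the highest folds of the type. At the other end, H4c2 had 68 reads (52.8 to 86.2) at 2.51-fold, the lowest fold at the strongest summit of any member. H4c9 had 102 at 2.85-fold and H4c17 had 85 at 3.40-fold. The strongest summit of H4c1, 120 reads at 3.67-fold, lay in H3c1. The summit in the H4c1 span had 84 reads at 2.47-fold, below that of H4c2. All of these H4 genes encode the same histone type, yet reads differed about as widely within H4 as across the whole family.

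**Figure D3:**
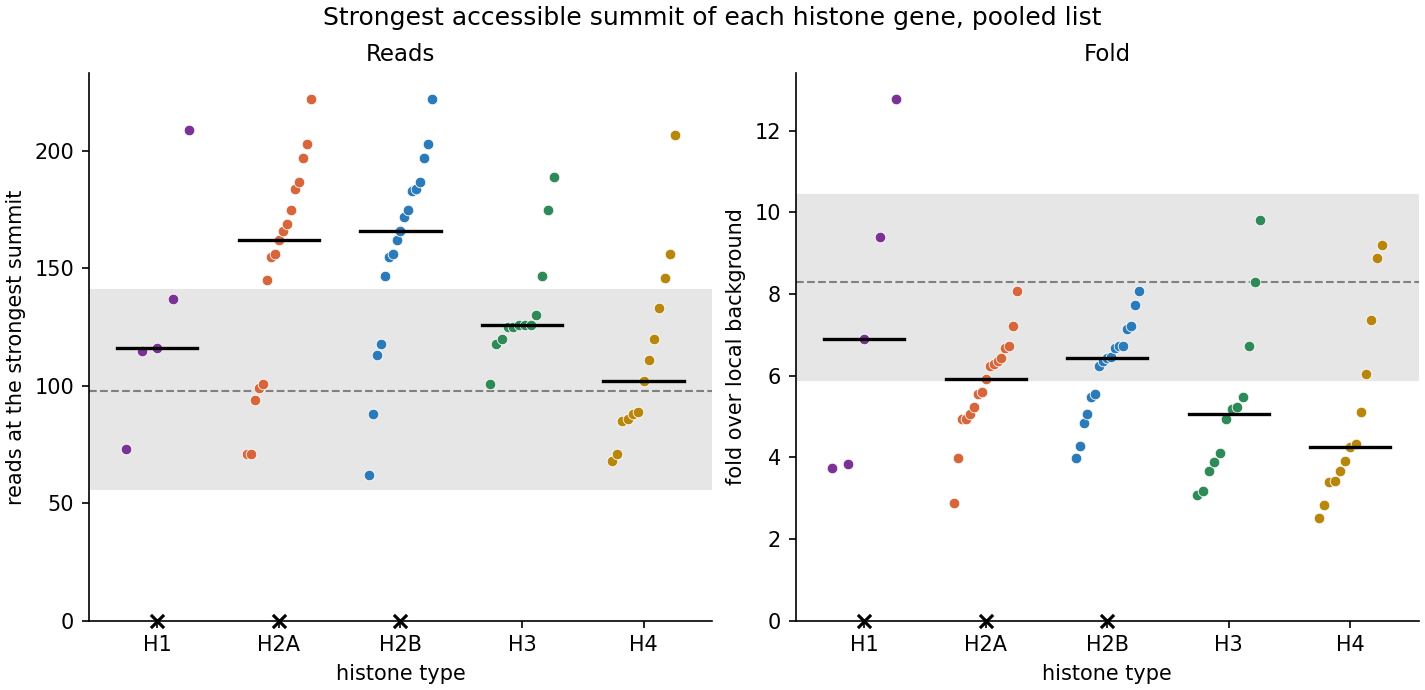
Reads (left) and fold over local background (right) at the strongest summit of each histone gene, by type; each point is a gene, black bars are medians and crosses on the axis mark genes without a summit. The dashed line and grey band give the median and the quartiles of all protein-coding genes with a summit; H2A and H2B have the highest median reads, and every type has a median fold below the dashed line.

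The position of the strongest summit differed between types and arrangements. With a strand and a start for 59 members with a summit, the distance to the start could be measured, positive into the gene. All 5 H1 summits lay 81 to 149 bp inside the gene. The median was 127.5 bp inside the gene for the 10 H3 genes and 159 bp for the 12 H4 genes. Of these 27 H1, H3 and H4 genes, 21 had the summit 1 to 300 bp past the start, or 77.8%. Among all genes with 1 annotated start and a summit within 1 kb of it 41.5% did, with a median of -2 bp. Among 384 other short genes 28.4% did, with a median of 101.5 bp inside the gene, so a typical summit inside the gene was found at short genes in general. Downstream summits made up 88.9% at H1, H3 and H4 genes and 65.4% at the short genes. H2A and H2B summits lay further upstream, with medians of -2 and -147 bp.

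Divergent pairs were then taken apart. There were 10 pairs with starts at most 500 bp apart on opposite strands, all of an H2A with an H2B gene, and 9 of them had a summit. In all 9 the strongest summit of both genes was the same one, with 155 to 222 reads and 3.99 to 7.21-fold. With starts this close, the 1 kb windows of both genes cover much the same stretch. Sharing thus largely follows from the assignment and is not a result about divergent promoters. The starts of these 9 pairs were 164 to 268 bp apart. The summit fell between the starts in 4 pairs and inside one of the genes in the others, and it was nearer to the H2A start in 7 of 9 pairs. At H2ac12 and H2bc12 it lay at -31 bp from the H2A start and -147 bp from the H2B start, both before the start. At H2ac8 and H2bc8 it lay 62 bp inside the H2A gene and at -242 bp from the H2B start. The 2 exceptions were H2ac22 with H2bc22 and H2ac11 with H2bc11, where it was nearer to H2B. These counts depend on near-ties between summits. H2ac12 and H2bc12 had another summit inside H2bc12, with 186 reads against 184 and a −log10 q of 88.7 against 90.3. H2ac8 and H2bc8 had another between the starts and nearer to H2B, with 154 reads against 156. The promoter windows of H2bc23 and H4bc24 are identical, so the 9 pairs are not all separate cases. H2B genes of pairs had a median of -176 bp and those outside pairs 78.5 bp. H2ac6 and H2bc4 also shared a summit but could not be counted, because H2bc4 has no start in the table used.

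**Figure D4:**
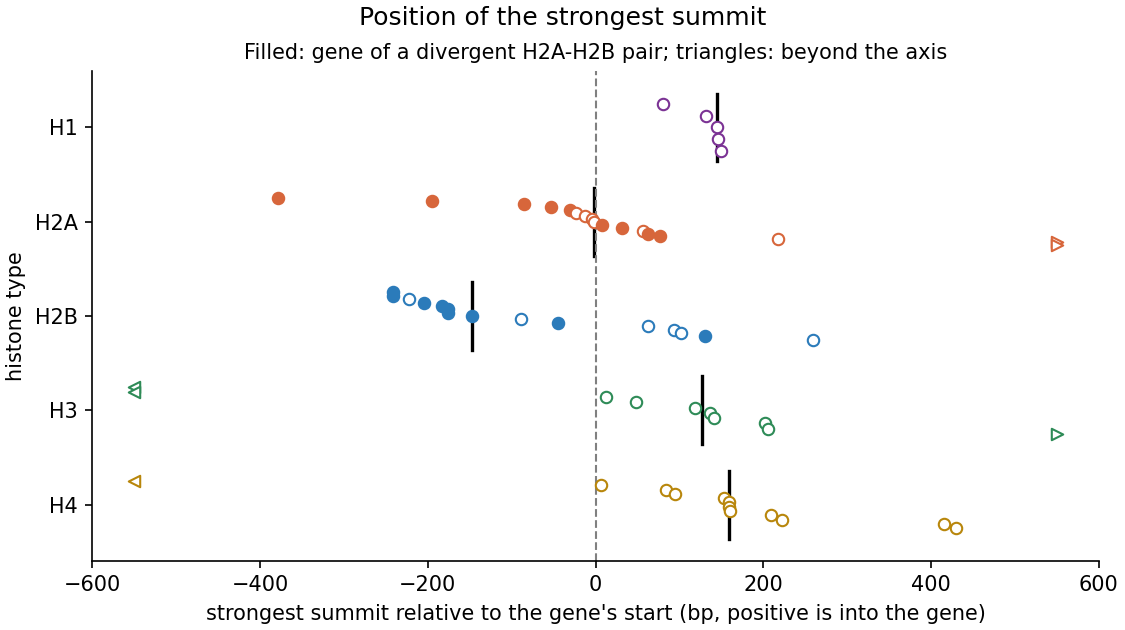
Distance from the annotated start to the strongest summit, in bp with positive values inside the gene, for the 59 histone genes with a start and a summit; filled points belong to divergent H2A-H2B pairs, triangles lie beyond the axis and black bars are medians. H1, H3 and H4 points gather inside the gene, and H2B genes of divergent pairs lie mostly before the start.

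Sharing was not limited to divergent pairs. H3c13 with H2bc18, H3c3 with H2bc3 and H2ac4 with H3c2 had the same strongest summit in reach, which need not lie at both genes (that of H2ac4 was 1394 bp past its start, where its own span had 89 reads). In all, 28 of 64 members had a strongest summit that was also another member's. The 64 members rested on 50 different ones. The strongest of these mixed summits was that of H3c3 and H2bc3, with 147 reads at 5.48-fold. Summits within reach of 3 members were found only on chromosome 3, where 5 summits of 37 to 62 reads lay within 1 kb of H2ac21, H2ac20 and H2bc21. A member had at most 7 summits in reach (H2bc6, whose annotated span of 37455 bp is by far the longest), and 16 members had 1.

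Along the genome, the members fell into 7 groups separated by more than 100 kb. The largest held 29 genes on chromosome 13 (23531044 to 23764412), with all types, and 28 of them had a summit. A cluster of 18 genes (21715711 to 21837530) and another of 5 genes (22035122 to 22043658) lay on the same chromosome, and every gene in them had a summit. The testis pair H2bc1 and H2ac1 stood alone there. Chromosome 3 held 10 genes (96219885 to 96270192), chromosome 11 held H2bu2 and H2aw (58948911 to 58955192) and chromosome 6 held H4f16 as its only member, all with a summit. Of all protein-coding genes 75.9% had one, so the counts of the smallest groups say little. Summits in these clusters sat at the histone genes. In the largest cluster, 50 of 57 summits (87.7%) were within 1 kb of a member, while the windows around members covered 44.0% of its length. In the cluster of 18 genes it was 34 of 38 summits (89.5%) with 42.4% of the length, and on chromosome 3 24 of 25 (96.0%) with 37.3%. Summits at members were also stronger, with a median of 116.5 reads in the largest cluster against 24 at its other summits, 125.5 against 19 in the cluster of 18 genes, and 75 reads on chromosome 3, where the lone other summit had 11.

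Median reads of the strongest summit were 135 in the largest cluster, 159 in the cluster of 18 genes, 184 in the cluster of 5 and 118 on chromosome 3. H2bu2 and H2aw on chromosome 11 had 88 (70.6 to 108) and 99 reads (80.5 to 121) at 7.14 and 5.91-fold, over backgrounds of 11.5 and 15.9 reads. The ranges of all clusters with 3 or more genes overlapped. Hfe, an iron regulator, was the only other protein-coding gene overlapping such a cluster, and its strongest summit had 27 reads at 4.39-fold over a background of 5.38. The 1485 kb between the cluster of 5 genes and the largest cluster held 83 summits, or 0.0559 per kb, against 0.242 per kb in the largest cluster and 0.307 in the cluster of 18 genes. The density over all chromosomes was 0.0506 per kb. Of 41 other genes in that stretch 4 had a summit (Zfp322a, Abt1, Btn1a1 and Btn2a2), and none of its 36 Vmn1r vomeronasal receptor genes did. Over all short chemoreceptor genes the share with a summit was 1.89%. The 196 kb between the clusters of 18 and 5 genes were unlike that stretch, with 0.235 summits per kb and a summit at all 3 other genes there (Zfp184, Pom121l2 and Prss16).

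**Figure D5:**
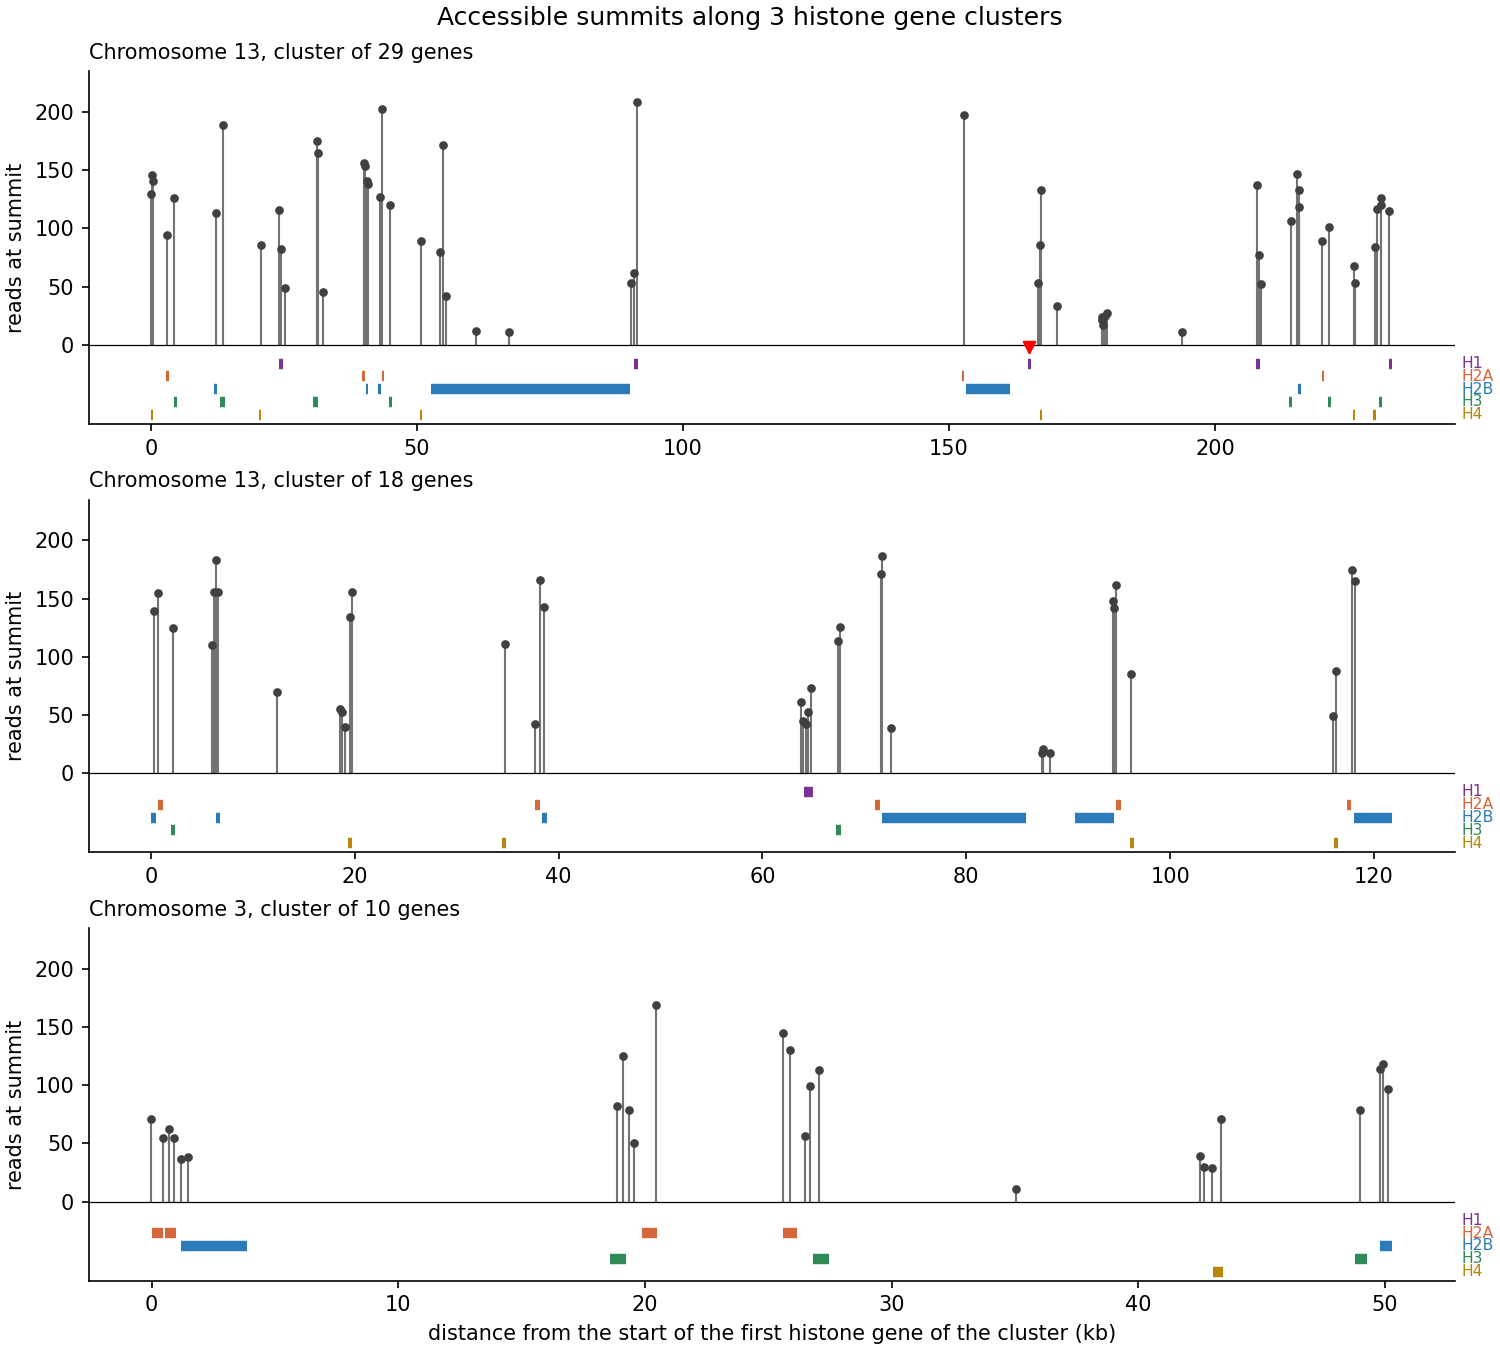
Reads at each summit (grey stems) along the 3 largest histone clusters, with distance from the start of the first histone gene in kb; coloured bars below are the gene spans by type and the red triangle marks H1f6, which had no summit within 1 kb. Stems of 100 reads or more stand at histone genes, and stems away from them in the largest cluster, most of them at Hfe, have a median of 24 reads.

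Some members have near-identical copies, which bears on their values. Promoter windows of 300 bases were compared, and 10 members in 7 pairs shared a run of at least 75 identical bases, the length of a read, with a window elsewhere in the clusters. The windows of H2bc23 and H4bc24 were identical over all 300 bases, those of H4c17 and H4c18 over 285, H3c14 and H3c15 over 231, and H2ac18 and H2ac19 over 219. Their strongest summits had 162 and 175 reads at H2bc23 and H4bc24, 85 and 88 at H4c17 and H4c18, and 145 and 169 at H2ac18 and H2ac19. H3c14 had 113 reads in its own span and H3c15 had 125. The summits in H4c17, H4c18, H3c14, H3c15 and H2ac19 lay past the end of the windows compared, so identity at the summit itself was not examined there. How reads that match both copies were placed is not given in the sources used here, so the values of these 10 genes cannot be assigned to 1 copy. Without them 54 of 57 members had a summit, with a median of 135 reads.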

How the data were processed

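ATAC-seq libraries of 2 replicates, made with 8 to 9 PCR cycles, were deposited as 1 pooled and filtered list of 138387 entries in 104069 intervals on mm10. In the submitters' processing notes stand MACS2 2.2.7.1, SAMtools 1.7.2, BWA 0.7.1.7, cutadapt 0.6.2 and Trim Galore. Their roles and settings, the filter, duplicate handling and any Tn5 shift were not given in the sources used here. For every entry there are the authors' fold (a ratio of pileup to local background), −log10 p and q values and a summit. The authors' score, not used here, is 10 times the −log10 p-value without its decimals (99.999% of entries). Library totals are unknown. Reads were solved from the deposited fold and p-value with the Poisson tail, and 99.96% of entries gave a whole number to within 0.01. The solution and the assignment of summits were tested on simulated data. Genes came from RefSeq GRCm38.p6, and a summit was assigned to every gene whose span lay within 1 kb of it. Python 3.11.15, pandas 2.3.3 and SciPy 1.17.1 were used. All comparisons are descriptions.

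The members and lists were chosen with earlier results of these data known. The genes named were, per type, the 3 with the highest and the 3 with the lowest −log10 q and those without a summit, all H1 genes, members outside the largest cluster, summits shared by 3 or more members and the 5 most significant shared by 2, and the lists for the histone locus body and replacement histones. Named after their values were seen were H2bc6, H2ac7, H2bc7, H2ac8, H2ac4, H2bc3, H3c1, H3c2, H3c3, H3c8, H4c1, H4c3, Hfe and the genes between clusters. Alternatives covered the window, the entries used, the member rule and the limits for short genes and clusters.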

Additional observations from a re-analysis of the deposited data

How the results depend on the processing

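The count of 64 members with a summit was 64 with a 500 bp window, with windows at gene ends, with q-values under 0.05 and with the upper 50% of entries, 65 with a 2 kb window, which adds H1f6, 60 with 1 entry per interval, 57 inside the span only, and 49 when entries whose background reached 30 reads were left out. In that last setting the members' share, 73.1%, was below the 75.7% of all genes; in the others named it stayed above, against 65.5% to 77.1% of all genes. Inside the span only, H2A fell to 11 of 18 genes, the cluster of 5 genes to 3, histone chaperones to 5 of 10 and the median fold of members to 4.85. With those entries left out, the cluster of 5 genes kept 2 and the largest cluster 18 of 29. With 1 entry per interval the members had 52 different summits. With a 2 kb window 1 of 5 germline variants gained a summit (Hils1, 13 reads). Keeping only genes whose first synonym starts with a Hist prefix left 12 members, of which 10 had a summit, with 21 different summits and medians of 6.40-fold and 185.5 reads. This alternative depends on the alphabetical order of synonyms. Of genes of 1 kb or less, 105 of 1516 had a summit. The other 200 values stayed within 1.5 times the count, or within the 95% binomial interval of the median. Windows around RefSeq starts (59 of 62 members) and leaving out near-identical copies were chosen after seeing the data. No replicate could be left out of a pooled list. No paired analysis was possible because the only file pools both replicates of 1 group.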

Other observations

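Histone pseudogenes with a Hist name, left out of the counts above, lay beside summits as well. H2ac14 on chromosome 13 had 4 summits within 1 kb, the strongest of 183 reads at 6.45-fold, which is the strongest summit of the neighbouring gene H2bc14. H2bu1-ps on chromosome 11 had 4, the strongest of 99 reads, which is also that of H2aw. H2af-ps2, which lies away from the clusters at chromosome 13, 51200084 to 51203066, had 1 summit of 58 reads at 8.89-fold over a background of 5.63 reads. The median of the 46 summits between the clusters of 18 and 5 genes was 48 reads. The 167 kb between the largest cluster and the testis pair held 7 summits with a median of 17 reads.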
